A study of Drosophila melanogaster with 17 samples.

Results

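Glutathione transferases attach the tripeptide glutathione to reactive compounds, and several also reduce lipid peroxides. Insects carry large delta (D) and epsilon (E) classes, many of them in tandem gene clusters, which are known for insecticide resistance and for responses to oxidative stress. GstS1 belongs to the sigma class, is abundant in flight muscle and conjugates the lipid peroxidation product 4-hydroxynonenal. The family was taken as the loci of the deposited count files whose gene symbol starts with Gst and a capital letter. These were 21 genes of 14095 loci: 10 of class D, 10 of class E and GstS1.

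Poly-A RNA of dissected adult Drosophila melanogaster tissue was sequenced in 17 libraries of 8 groups. Fat body, the organ of fat storage and of humoral immune secretion, came from old flies of 50 days (3 libraries), from flies of 5 days with RNA interference against Lam (2 libraries) and from untreated young flies of 5 days (2 libraries). Midgut, the absorptive part of the intestine, came from the same old, Lam-RNAi and young kinds of flies (2 libraries each). Whole gut came from old flies of 40 days and from young flies of 5 days (2 libraries each). The young controls are called wild type in the series text. Strain, sex, the driver of the interference and pooling of animals are not given in the sources used here.

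Libraries held 31637135 to 78289614 counts and detected 10383 to 12670 loci. Levels are given as CPM, counts normalised to the library total on the usual scale, and 3 counts, the limit that a count of 0 allows, equal 0.0383 to 0.0948 CPM. Lam, which encodes lamin-B of the nuclear lamina, was at 15.5 and 16.1 CPM in Lam-RNAi fat body, against 38.4 and 39.0 CPM in young fat body. In midgut Lam was at 32.0 and 30.4 CPM in the Lam-RNAi libraries, against 28.9 and 32.1 CPM in the young ones, and did not pass the test (adjusted p = 0.173 in edgeR). The 12 fat body markers matched summed to between 50079.8 and 153153 CPM in the fat body libraries and to at most 7539 CPM in the gut libraries. The 18 midgut markers matched summed to between 48516 and 100572 CPM in the gut libraries and to at most 1372 CPM in fat body. Old fat body replicate 3 stood between replicates 1 and 2 at 632 of the 633 loci that were 2-fold apart between those replicates, and at 18 of the 21 transferases. Over those 633 loci it stood at a median of 0.458 of the way from replicate 2 to replicate 1 (quartiles 0.413 and 0.494). Whether replicate 3 is a sample independent of the other old fat body libraries was not tested. If it is not, the n of 3 is too high and the p-values of old fat body are too small. The counts of called genes in old fat body are therefore given with and without it.

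The class D genes lie on chromosome 3R at 8190495 to 8206537, a stretch of 16043 bases. The class E genes lie on chromosome 2R at 14284142 to 14297340, a stretch of 13199 bases. GstS1 lies apart at 12980757 to 12984935 on the minus strand of 2R. Coordinates are those of the files, whose build is not stated. GstD9 and GstD1 share 19 bases on the same strand, and GstE9 shares 46 bases with imd on the opposite strand, so their values are uncertain at those ends. Reads from near-identical neighbours may also have been split, as the labels do not say how multi-mapping reads were counted. Transferases listed under other symbols, among them the omega, theta and zeta classes, were kept apart as a comparison list of 16 genes. That list also holds genes now named as epsilon or delta: CG5224 (GstE11), CG16936 (GstE12), CG11784 (GstE13), CG4688 (GstE14) and CG17639 (GstD11). Class D and class E here mean the family taken by symbol, without these genes.

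In young flies most of the family was lower in fat body than in midgut. Fold changes between groups were tested with edgeR's quasi-likelihood test, with p-values adjusted over all loci of the fit and called below 0.05. In young fat body 19 of the 21 genes were lower than in young midgut, where 35% of the 11128 loci tested were lower. None were higher (34.3% of loci), at the adjusted or the unadjusted threshold or in DESeq2, and GstE1 and GstE10 did not pass. The family's median log2 fold change was -3.94, against 0.02 over all loci. The 19 genes and the median include GstD7, GstD8 and GstE4, with at most 1 read in each young fat body library. They passed the count filter of this fit through gut libraries alone, so their lower calls followed from how they entered the test. GstD4 and GstD6 had at most 3 reads in each young fat body library. Scaling by total counts alone moved the median of all loci to 0.48 and gave 1 gene higher and 18 lower. Under it 8255 of 11128 loci were called, and 68.1% of those were higher.

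GstD1, a delta enzyme known for DDT breakdown and as a reporter gene of oxidative stress, had the highest mean level per length in all 3 young tissues. Per kilobase of coding sequence it stood at 423 CPM in young fat body, against 1862 CPM in young midgut, with 1057 CPM in young whole gut. GstE3 ranked next in both gut tissues, with 536 CPM per kilobase in young midgut and 637 CPM per kilobase in young whole gut. In young fat body GstE9 ranked next, with 287 CPM per kilobase.

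GstD7 and GstD8 had no read in either young fat body library. In young midgut GstD7 was at 50.1 and 54.6 CPM and GstD8 at 40.6 and 35.5 CPM. Against the limit of 3 counts over both young fat body libraries, 0.033 CPM, young fat body was at least 1568-fold lower for GstD7 and at least 1135-fold lower for GstD8. Both genes were detected in young midgut and not at this depth in young fat body.

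GstE9 differed least among the called genes, with 195 and 187 CPM in young fat body, against 195 and 222 CPM in young midgut. Its difference on the fit's scale was a log2 fold change of -0.59 (SE 0.12). GstE10 did not pass, at 9.98 and 8.76 CPM in young fat body, against 6.15 and 5.94 CPM in young midgut. It was far higher in the whole gut libraries, at 103 and 115 CPM in the young ones, a difference that was not tested. Whole gut also held more of the 9 Malpighian tubule markers, which summed to 1576 to 1798 CPM there and to 103 to 156 CPM in midgut; none was at 0, and their part in the GstE10 level was not tested.

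**Figure D1:**
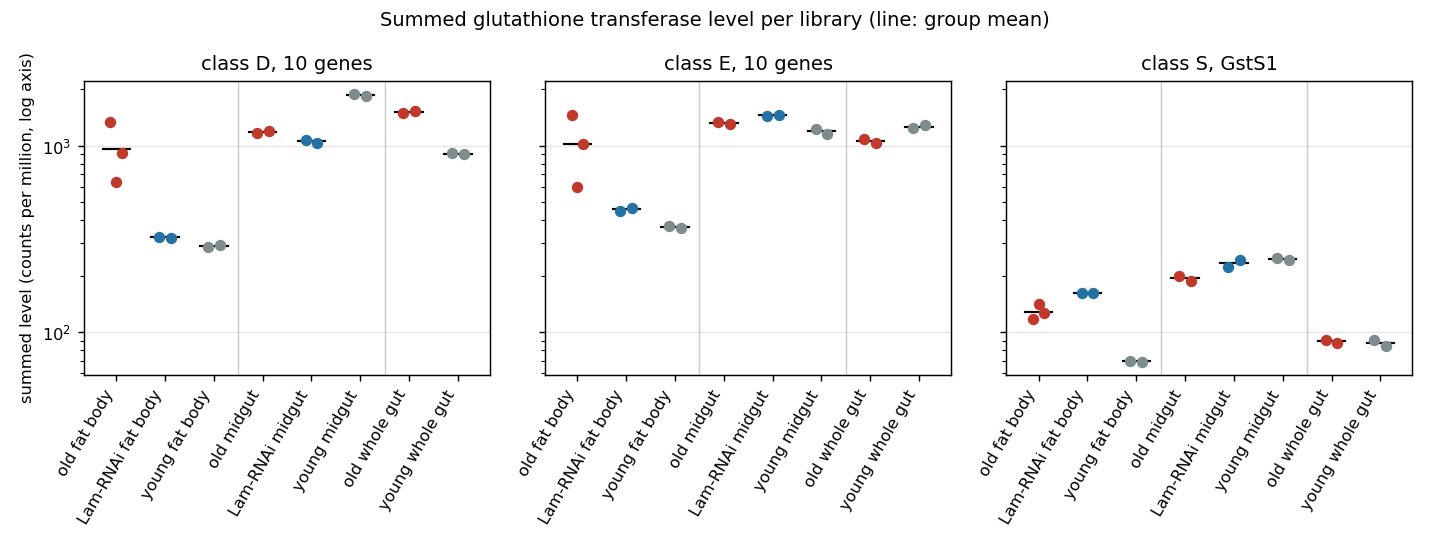
Summed level of the class D genes, the class E genes and GstS1 in each of the 17 libraries, in CPM on a log axis, with lines at group means. In fat body the class D sum was 641 to 1335 CPM in old libraries, against 287 and 294 CPM in young ones, while in midgut it was 1164 and 1191 CPM in old libraries, against 1882 and 1851 CPM in young ones.

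With age the family rose in fat body. Of 18 genes tested there, 15 were higher in old than in young fat body (19.1% of the 10866 loci tested were higher), 1 was lower (19% of loci) and 2 did not pass. The family's median log2 fold change was 1.77, against 0.02 over all loci. By class, 7 of 8 class D genes tested, 7 of 9 class E genes tested and GstS1 were higher. The genes tested are those that passed the count filter, and GstD7, GstD8 and GstE4 did not pass it. The summed level of all 21 genes was 2908, 1383 and 2057 CPM in old fat body, against 727 and 724 CPM in young fat body. Bulk RNA cannot tell more cells of a type from more RNA per cell.

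GstE7, an epsilon enzyme, had the largest rise among genes with a mean of at least 5 CPM. It was at 117, 68.0 and 90.8 CPM in old fat body, against 9.68 and 9.75 CPM in young fat body. The groups were far apart, with the lowest old library well above both young ones. The change was 8.89-fold (log2 fold change 3.15, SE 0.22, adjusted p = 0.000165). Its neighbours GstE6 and GstE8 rose too. GstE6 was at 148, 59.0 and 102 CPM in old fat body, against 28.5 and 23.8 CPM in young fat body, a 3.69-fold change (adjusted p = 0.00682). GstE8 was at 49.4, 16.9 and 34.6 CPM in old fat body, against 8.27 and 8.62 CPM in young fat body, a 3.73-fold change (adjusted p = 0.0115). For both genes replicate 1 was the highest old library and replicate 2 the lowest, and none overlapped the young libraries.

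In class D, GstD2 was at 37.2, 9.72 and 20.9 CPM in old fat body, against 3.33 and 3.72 CPM in young fat body. The old libraries differed among themselves by 3.83-fold and still lay above the young ones. The change was 5.99-fold (log2 fold change 2.58, SE 0.54, adjusted p = 0.0112). GstD3 was at 18.6, 22.4 and 19.3 CPM in old fat body, against 6.56 and 4.72 CPM in young fat body. Here the old libraries lay close together, and the change was 3.38-fold (log2 fold change 1.76, SE 0.18, adjusted p = 0.000686). GstD1, the delta enzyme that makes up most of its class, was at 1192, 577 and 818 CPM in old fat body, against 261 and 269 CPM in young fat body. All old libraries were above the young ones, and the change was 3.05-fold (log2 fold change 1.61, SE 0.27, adjusted p = 0.0048).

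GstE3, the highest of class E over all libraries, was at 147, 66.8 and 104 CPM in old fat body, against 42.9 and 49.8 CPM in young fat body, and rose 2.15-fold (adjusted p = 0.0253). GstE9 was at 486, 337 and 419 CPM in old fat body, against 195 and 187 CPM in young fat body, and rose 2.04-fold (adjusted p = 0.00197). GstS1 was at 118, 140.5 and 127 CPM in old fat body, against 70.1 and 69.3 CPM in young fat body. It rose 1.74-fold (log2 fold change 0.80, SE 0.11, adjusted p = 0.002). The 19 muscle markers summed to 6005 to 8629 CPM in old fat body, against 13819.9 to 13838 CPM in young fat body. Of these markers 16 were lower, 1 was higher and none was at 0, and the part of muscle in the transferase levels was not tested.

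GstE10 was the single fall, at 6.96, 5.61 and 6.14 CPM in old fat body, against 9.98 and 8.76 CPM in young fat body. It was 1.59-fold lower (log2 fold change -0.67, SE 0.14, adjusted p = 0.012), a call that was lost without young replicate 1 and without old replicate 3 (adjusted p up to 0.0962). The remaining called genes, GstD4, GstD5, GstD6, GstD9, GstE2 and GstE5, were all higher, with GstD9 at 2.93-fold, GstE2 at 2.24-fold and GstE5 at 1.86-fold. GstD5 was at 2.17 to 7.78 CPM in old fat body, against 0.599 and 0.408 CPM in young fat body. Its log2 fold change ranged over 2.83 to 3.62 with 1 library left out. GstD4 and GstD6 rest on few reads: GstD4 had 3 reads in each young library, and GstD6 had 2 and 0, so no fold is given for them.

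GstE1 and GstD10, whose old libraries differed widely, did not pass. GstE1 was at 489.8 CPM in old replicate 1, 38.1 CPM in replicate 2 and 246 CPM in replicate 3, against 70.0 and 68.6 CPM in young fat body. Replicate 2 was below the young libraries and the others above them. With old replicates 1 and 3 both left out, 13 genes were higher and 2 lower (47.2% of loci either way), and GstE1 was lower by a log2 fold change of -0.90. The old group is then replicate 2 alone, whose spread is assumed to be that of the other groups, so these values have no replicate check in old fat body. GstD10 was at 18.4, 2.09 and 9.72 CPM in old fat body, against 1.2 and 2.02 CPM in young fat body (adjusted p = 0.0519).

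Without old replicate 3, 12 genes were higher and none lower in old fat body, where 23.8% of loci were called in either direction, and GstD6, GstE3, GstE5 and GstE10 lost their call. Without young replicate 1, 9 were higher and none lower (18.6% of loci either way), and without young replicate 2, 5 were higher and 1 lower (17.5%), against 38.1% with all libraries. The young group is then 1 library, whose spread is assumed to be that of the other groups. GstD1, GstD3, GstE7, GstE9 and GstS1 were called higher whichever single library was left out. Other cell type markers also moved with age in fat body: 9 of 15 midgut markers tested were higher (summed 1149 to 1372 CPM in old, against 998 to 1052 CPM in young, with Npc2d at 0 in old and Jon66Ci at 0 in young), 4 of 5 trachea markers were lower (209.8 to 224 CPM in old, against 421 to 429 CPM in young, none at 0), and all 6 oenocyte markers were lower (26069.5 to 42281 CPM in old, against 110892 to 111887 CPM in young, none at 0). Of 7 ovary markers tested 3 were higher (83.3 to 251 CPM in old, against 74.2 to 74.7 CPM in young). Cp36, Cp38, Vm26Aa and Vm26Ab were at 0 in young fat body. Of 9 hemocyte markers 1 was higher and 3 were lower (1370 to 2466 CPM in old, against 2628 to 2819 CPM in young). Of 12 fat body markers 4 were higher and 2 lower (66808 to 75157 CPM in old, against 50079.8 to 50687 CPM in young). Malpighian tubule markers were lower in 2 of 9 cases. The part of these cell types in the transferase levels was not tested.

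**Figure D2:**
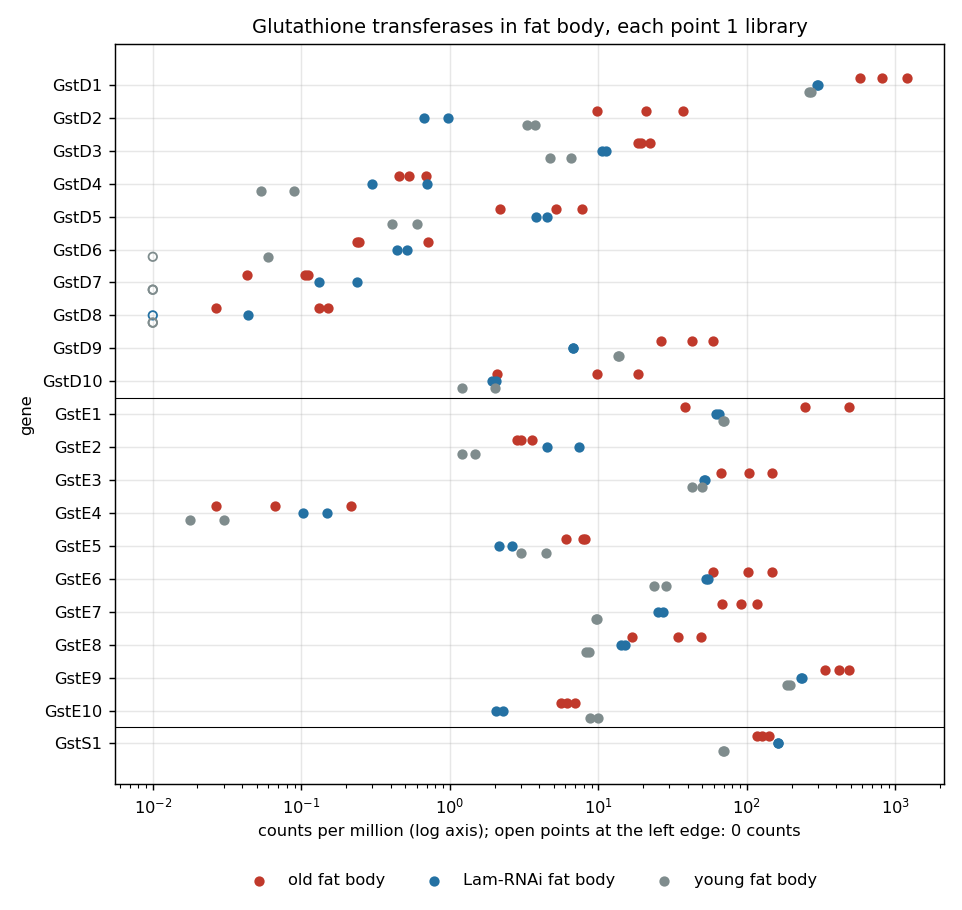
Level of each transferase in each fat body library, in CPM on a log axis; open points at the left edge had 0 counts. GstE7 was at 68.0 to 117 CPM in old libraries, against 9.68 and 9.75 CPM in young ones, and the old libraries of GstE1 spread from 38.1 to 489.8 CPM.

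Fat body of young Lam-RNAi flies differed from that of young controls in part of the family. The controls are called wild type, and strain and driver are not given. An effect of the Lam knockdown can therefore not be told apart from one of driver, construct or genetic background, here or in midgut. Of 18 genes tested, 9 were higher in Lam-RNAi than in young fat body (18.5% of loci were higher), 2 were lower (17.1% of loci) and 7 did not pass. The median log2 fold change was 0.72, against -0.01 over all loci. Class D had 4 higher and 1 lower of 8 tested, and class E had 4 higher and 1 lower of 9 tested. Scaling by total counts alone moved the median of all loci to -0.18 and gave 7 higher and 3 lower. Under it 4447 of 10866 loci were called, and 34.9% of those were higher.

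GstS1 rose to 162 and 163 CPM in Lam-RNAi fat body, against 70.1 and 69.3 CPM in young fat body. The replicates of each group nearly coincided, and the change was 2.63-fold (log2 fold change 1.39, SE 0.12, adjusted p = 0.000331). Of the 19 muscle markers, 2 were higher and 7 lower in this comparison, and the part of muscle in the transferase levels was not tested. GstE7 was at 25.3 and 27.2 CPM in Lam-RNAi fat body, against 9.68 and 9.75 CPM in young fat body, a 3.05-fold change (adjusted p = 0.00221). GstE6 was at 53.5 and 54.9 CPM in Lam-RNAi fat body, against 28.5 and 23.8 CPM in young fat body (2.34-fold, adjusted p = 0.0387). GstD3 was at 10.5 and 11.3 CPM in Lam-RNAi fat body, against 6.56 and 4.72 CPM in young fat body (2.19-fold, adjusted p = 0.00493). None of these groups overlapped.

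GstE9 was at 231 and 236 CPM in Lam-RNAi fat body, against 195 and 187 CPM in young fat body, a small change of 1.38-fold near the threshold (adjusted p = 0.0494). GstE2 rose 5.06-fold at a low level, with 4.52 and 7.44 CPM in Lam-RNAi fat body, against 1.47 and 1.21 CPM in young fat body (adjusted p = 0.00176). GstD5, at 4.52 and 3.78 CPM in Lam-RNAi fat body, against 0.599 and 0.408 CPM in young fat body, rose 9.44-fold (adjusted p = 0.0072). GstD4 and GstD6 were called higher at below 1 CPM in every fat body library.

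GstE10 fell to 2.27 and 2.05 CPM in Lam-RNAi fat body, against 9.98 and 8.76 CPM in young fat body. It was 3.85-fold lower (log2 fold change -1.94, SE 0.17, adjusted p = 0.000346). GstD2 fell to 0.965 and 0.672 CPM in Lam-RNAi fat body, against 3.33 and 3.72 CPM in young fat body (3.87-fold lower, adjusted p = 0.0479). GstD1, at 299 and 295 CPM in Lam-RNAi fat body, against 261 and 269 CPM in young fat body, did not pass (adjusted p = 0.389). GstE3, at 51.6 and 52.1 CPM in Lam-RNAi fat body, against 42.9 and 49.8 CPM in young fat body, did not pass (adjusted p = 0.431).

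Without young replicate 2, 4 genes were higher and 1 lower (17.5% of loci either way), and without Lam-RNAi replicate 2, 5 were higher and 1 lower (16.2%), against 35.7% with all libraries. A group is then 1 library, whose spread is assumed to be that of the other groups. GstD3, GstE2, GstE7, GstE10 and GstS1 kept their call whichever library was left out, while GstD2, GstE6 and GstE9 lost it in every case. The oenocyte markers summed to 40589.9 to 44212 CPM in Lam-RNAi fat body, against 110892 to 111887 CPM in young fat body, with 4 of 6 lower and none at 0. The fat body markers summed to 132396 to 153153 CPM in Lam-RNAi fat body, against 50079.8 to 50687 CPM in young fat body, with 6 of 12 higher, 2 lower and none at 0. Of 15 midgut markers tested 9 were higher and 1 lower (1162 to 1236 CPM in Lam-RNAi, against 998 to 1052 CPM in young fat body, with Npc2d at 0 in Lam-RNAi and Jon66Ci at 0 in young). Of 7 ovary markers tested 5 were higher (203 to 223 CPM in Lam-RNAi, with Cp36 at 0, against 74.2 to 74.7 CPM in young fat body, with Cp36, Cp38, Vm26Aa and Vm26Ab at 0). The part of these cell types in the transferase levels was not tested.

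Old and Lam-RNAi fat body, both set against the same 2 young libraries above, were also compared with each other. The flies were of 50 and 5 days, so this comparison joins age with RNA interference and any difference of genetic background. Of 18 genes tested, 7 were higher in old than in Lam-RNAi fat body (5.65% of loci were higher), 2 were lower (9.09% of loci) and 9 did not pass. The median log2 fold change was 0.85, against 0.01 over all loci. GstD2 differed most, 23.2-fold higher in old fat body (log2 fold change 4.54, SE 0.62, adjusted p = 0.00646). It was called higher in old and lower in Lam-RNAi fat body, each against young fat body. GstD9 was 5.29-fold higher in old fat body (59.3, 26.4 and 43.0 CPM, against 6.71 and 6.78 CPM in Lam-RNAi fat body, adjusted p = 0.00557). GstE7 was 2.92-fold and GstD1 2.41-fold higher in old fat body (adjusted p = 0.0058 and 0.0266), and GstE5, GstE9 and GstE10 were the other rises. GstS1 and GstE2 were the falls, 1.51-fold and 2.26-fold lower in old fat body (adjusted p = 0.0145 and 0.0285). These calls rest on few libraries: no gene kept its call in every case of 1 library left out. Without old replicates 1 and 3, 8 were higher and 4 lower (28.2% of loci either way), with an old group of 1 library whose spread is assumed to be that of the other groups. Counts were 4 higher and none lower without old replicate 3 (4.46% of loci called in either direction), 13 higher and 2 lower without old replicate 2 (32.8%), 1 higher and none lower without Lam-RNAi replicate 1 (2.53%), and none either way without Lam-RNAi replicate 2 (1.83%), against 14.7% with all libraries. Markers differed too: 1 of 12 fat body markers was higher and 5 were lower in old fat body (66808 to 75157 CPM in old, against 132396 to 153153 CPM in Lam-RNAi fat body). Also lower were 6 of 19 muscle markers (6005 to 8629 CPM, against 8150.1 to 8600.5 CPM in Lam-RNAi), 4 of 5 trachea markers (209.8 to 224 CPM, against 405 to 486 CPM in Lam-RNAi) and 4 of 9 hemocyte markers (1369.9 to 2466 CPM, against 2306 to 2557 CPM in Lam-RNAi). None of these was at 0, and their part in the transferase levels was not tested.

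**Figure D3:**
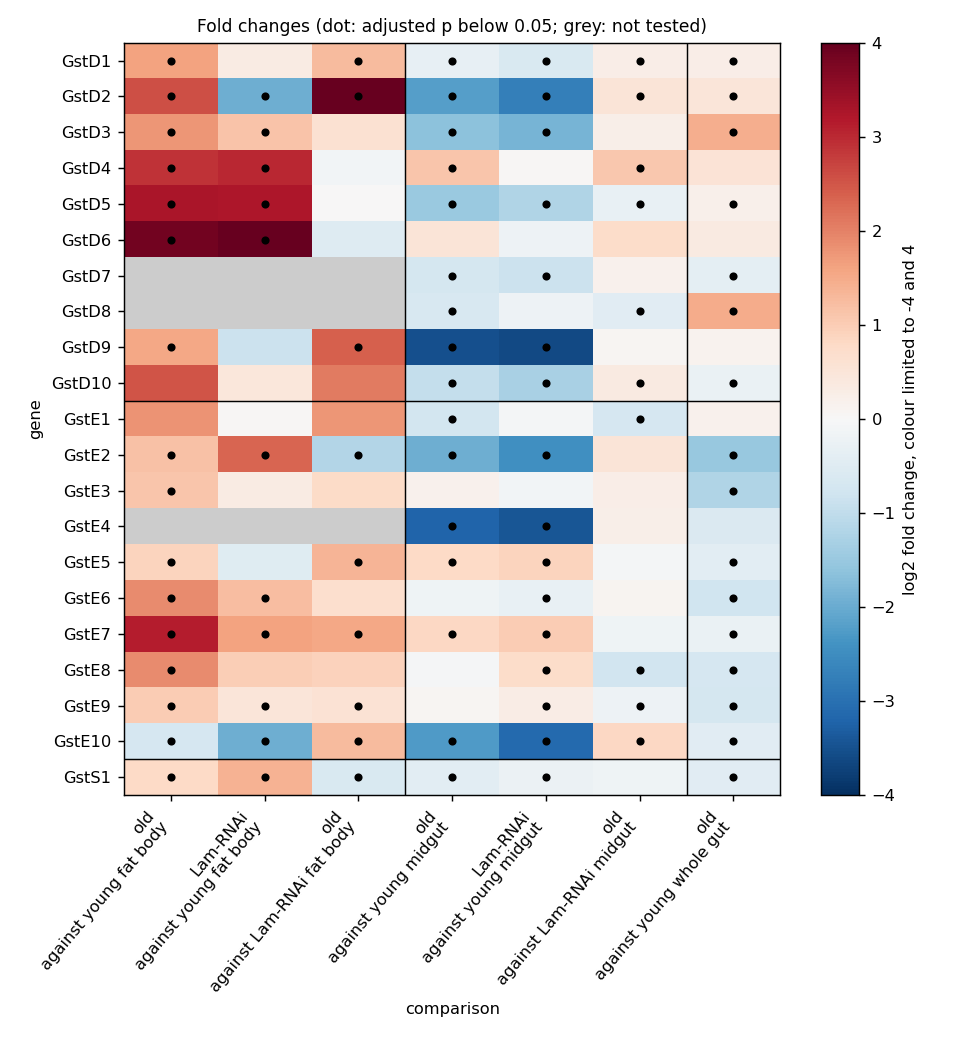
Log2 fold change of each transferase in 7 comparisons, with a dot where the adjusted p was below 0.05 and grey where the gene was not tested; colours are limited to -4 and 4. The first column, old against young fat body, holds 15 rises, and the column of old against young midgut holds 13 falls; in whole gut 6 of the called falls do not keep their sign under scaling by total counts.

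In midgut most of the family was lower with age. Of 21 genes tested, 13 were lower in old than in young midgut (28.7% of the 10220 loci tested were lower), 3 were higher (25% of loci, 53.7% either way) and 5 did not pass. The median log2 fold change was -0.65, against 0.01 over all loci. Class D held most of the falls, with 8 of 10 lower and 1 higher, while class E had 4 lower and 2 higher of 10. The summed level was 2709 and 2679.7 CPM in old midgut, against 3354 and 3254 CPM in young midgut.

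GstD9, a delta enzyme encoded beside GstD1, had the largest fall. It was at 30.2 and 31.1 CPM in old midgut, against 324 and 359.8 CPM in young midgut. The old libraries were nearly identical, and the change was 11.6-fold lower (log2 fold change -3.53, SE 0.07, adjusted p = 5.52e-12). GstD1, which overlaps GstD9 by 19 bases, was at 946 and 972 CPM in old midgut, against 1188 and 1147 CPM in young midgut. It was 1.27-fold lower (log2 fold change -0.34, SE 0.09, adjusted p = 0.00827), so the neighbours moved by unequal amounts.

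GstD2 was at 8.49 and 9.30 CPM in old midgut, against 41.8 and 37.0 CPM in young midgut (4.56-fold lower, adjusted p = 2.92e-08). GstD3 was at 4.50 and 4.0 CPM in old midgut, against 12.3 and 13.0 CPM in young midgut (3.12-fold lower, adjusted p = 7.19e-08). GstD5 was at 19.5 and 17.4 CPM in old midgut, against 52.9 and 46.3 CPM in young midgut (2.82-fold lower, adjusted p = 2.3e-07). These 3 genes lie side by side with GstD4, and in each the old and young libraries were apart. GstD4, between GstD3 and GstD5, was higher instead, at 9.59 and 11.5 CPM in old midgut, against 4.74 and 4.83 CPM in young midgut (2.15-fold, adjusted p = 0.000873). GstD10 was at 85.5 and 87.4 CPM in old midgut, against 167 and 152 CPM in young midgut (1.92-fold lower, adjusted p = 2.13e-06). GstD7 and GstD8 were 1.62-fold and 1.56-fold lower, and GstD6, below 1 CPM in every midgut library, did not pass.

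GstE7 and GstE5 were the rises of class E. GstE7 was at 163 and 144 CPM in old midgut, against 82.5 and 82.7 CPM in young midgut (1.78-fold, adjusted p = 6.84e-07). GstE5 was at 105 and 101 CPM in old midgut, against 54.9 and 58.5 CPM in young midgut (1.75-fold, adjusted p = 3.4e-07). Both genes were apart between the groups. GstE3, at 406 and 418 CPM in old midgut, against 379 and 329 CPM in young midgut, did not pass (adjusted p = 0.225), and neither did GstE6, GstE8 and GstE9. GstS1 was at 199 and 189 CPM in old midgut, against 249 and 245 CPM in young midgut, and was 1.33-fold lower (adjusted p = 0.000656).

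The falls of class E were mostly of scarce transcripts. GstE4 was at 0.437 and 0.370 CPM in old midgut, against 3.31 and 3.78 CPM in young midgut (9.27-fold lower). GstE10 was at 1.19 and 1.35 CPM in old midgut, against 6.15 and 5.94 CPM in young midgut (4.82-fold lower), and GstE2 was 3.87-fold lower. GstE1, at 63.0 and 54.2 CPM in old midgut, against 98.1 and 87.4 CPM in young midgut, was 1.66-fold lower (adjusted p = 0.000256). Of the 16 calls, 15 held whichever single midgut library was left out, GstD1 being the exception. Markers of other tissues fell in the same comparison: 11 of 12 fat body markers were lower (1504 to 1589.9 CPM in old midgut, against 6150.0 to 7539 CPM in young midgut), as were all 6 oenocyte markers (56.7 to 60.1 CPM in old midgut, against 2559 to 3366 CPM in young midgut) and 18 of 19 muscle markers (2467 to 2781 CPM in old midgut, against 6558 to 7109.6 CPM in young midgut). All 9 hemocyte markers were lower too (89.5 to 96.7 CPM in old midgut, against 349 to 423 CPM in young midgut). So were all 5 trachea markers (21.7 to 26.7 CPM, against 70.7 to 89.4 CPM in young midgut). Of the 18 midgut markers 3 were higher and 9 lower. Their sum was 64248 to 70465 CPM in old midgut, against 67906 to 85652 CPM in young midgut. Of the 9 Malpighian tubule markers 1 was higher and 5 were lower. None of these markers was at 0 in either group, and their part in the falls was not tested.

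**Figure D4:**
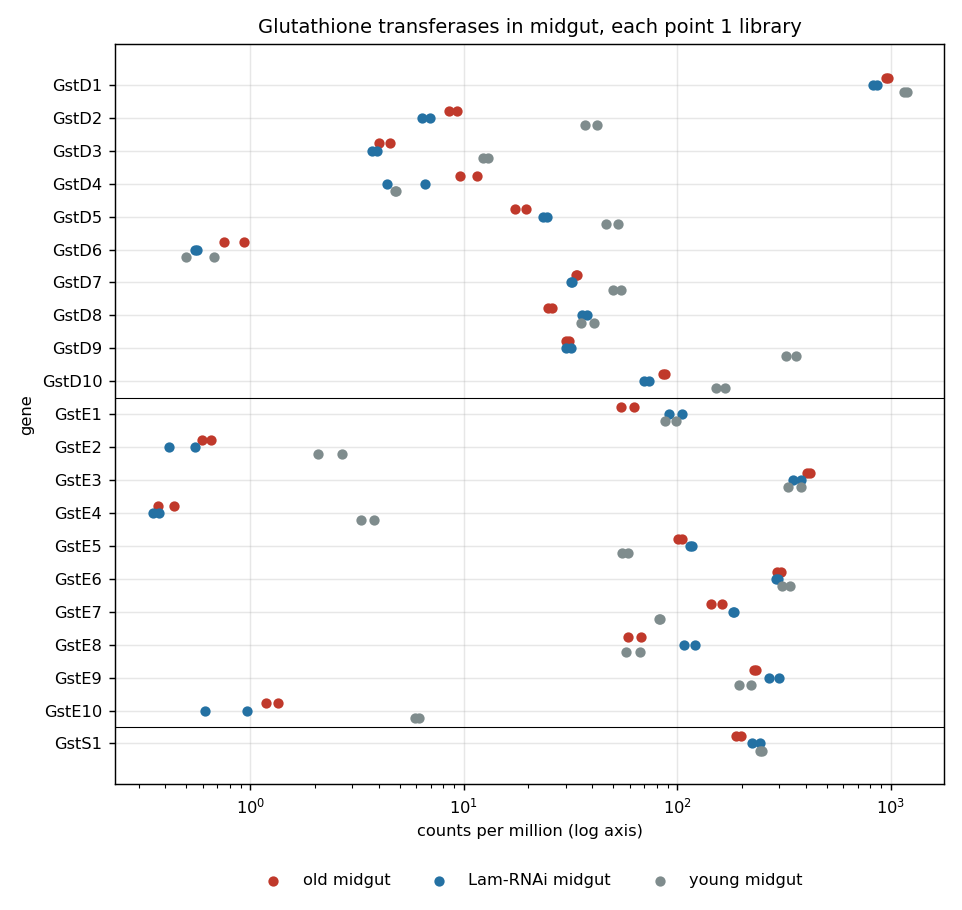
Level of each transferase in each midgut library, in CPM on a log axis. GstD9 was at 30.2 and 31.1 CPM in old and 31.6 and 30.2 CPM in Lam-RNAi libraries, against 324 and 359.8 CPM in young ones.

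The midguts of Lam-RNAi flies, in which Lam itself was not called, differed from young midguts in 16 transferases. Of 21 tested, 12 were lower (29.9% of loci were lower), 4 were higher (25.5% of loci, 55.4% either way) and 5 did not pass. The median log2 fold change was -0.29, against -0.01 over all loci. Class D had 7 of 10 lower, and class E had 4 higher and 4 lower of 10. This comparison shares its young libraries with that of old midgut.

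GstD9 was at 31.6 and 30.2 CPM in Lam-RNAi midgut, against 324 and 359.8 CPM in young midgut, 12.2-fold lower (log2 fold change -3.61, SE 0.07, adjusted p = 3.59e-12). GstD2 was at 6.96 and 6.35 CPM in Lam-RNAi midgut, against 41.8 and 37.0 CPM in young midgut (6.58-fold lower, adjusted p = 7.34e-09). GstD3 was at 3.71 and 3.91 CPM in Lam-RNAi midgut, against 12.3 and 13.0 CPM in young midgut (3.67-fold lower, adjusted p = 2.6e-08). In these 3 delta genes the Lam-RNAi libraries lay close together and far below the young ones. GstD10 was at 73.8 and 70.0 CPM in Lam-RNAi midgut, against 167 and 152 CPM in young midgut (2.46-fold lower), and GstD5 was at 23.6 and 24.5 CPM, against 52.9 and 46.3 CPM in young midgut (2.29-fold lower). GstD1 was at 864 and 821 CPM in Lam-RNAi midgut, against 1188 and 1147 CPM in young midgut (1.54-fold lower, adjusted p = 0.000125).

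In class E, GstE7 was at 181 and 184 CPM in Lam-RNAi midgut, against 82.5 and 82.7 CPM in young midgut (2.0-fold, adjusted p = 1.36e-07). GstE5 was at 118 and 115 CPM in Lam-RNAi midgut, against 54.9 and 58.5 CPM in young midgut (1.85-fold, adjusted p = 1.37e-07). GstE8 was at 108 and 120.4 CPM in Lam-RNAi midgut, against 66.8 and 57.3 CPM in young midgut (1.66-fold, adjusted p = 0.000364). These 3 epsilon genes stood apart between the groups. GstE9 was at 269 and 298 CPM in Lam-RNAi midgut, against 195 and 222 CPM in young midgut, and rose 1.23-fold (adjusted p = 0.00409). GstE3, at 378 and 349 CPM in Lam-RNAi midgut, against 379 and 329 CPM in young midgut, did not pass (adjusted p = 0.371).

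GstE4, GstE10 and GstE2 were 10.8-fold, 8.58-fold and 5.47-fold lower in Lam-RNAi midgut, at below 1 CPM in each of its libraries. GstS1 was at 223 and 244 CPM in Lam-RNAi midgut, against 249 and 245 CPM in young midgut, and was 1.17-fold lower (adjusted p = 0.0217). Of the 16 calls, 13 held whichever single library was left out; GstE6, GstE9 and GstS1 did not. Fat body markers were lower in 11 of 12 cases (1408 to 1435 CPM in Lam-RNAi midgut, against 6150.0 to 7539 CPM in young midgut), and all 6 oenocyte markers were lower (25.7 to 30.6 CPM, against 2559 to 3366 CPM in young midgut). So were 18 of 19 muscle markers (3636 to 3809 CPM in Lam-RNAi, against 6558 to 7109.6 CPM in young midgut), all 9 hemocyte markers (121 to 134 CPM, against 349 to 423 CPM in young midgut) and all 5 trachea markers (29.6 to 30.1 CPM, against 70.7 to 89.4 CPM in young midgut). Of the 18 midgut markers 4 were higher and 11 lower (58063 to 58327 CPM in Lam-RNAi, against 67906 to 85652 CPM in young midgut). None of these was at 0, and their part was not tested.

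Old and Lam-RNAi midguts were also compared with each other, with 5 transferases higher and 5 lower in old midgut of 21 tested (17.1% and 18.9% of loci, 36% in either direction). Here too age, 50 and 5 days, differs together with RNA interference and any difference of genetic background. GstD4 was 2.10-fold higher in old midgut (9.59 and 11.5 CPM, against 6.55 and 4.39 CPM in Lam-RNAi midgut, adjusted p = 0.00162). GstE8 was 1.70-fold lower in old midgut (68.0 and 58.9 CPM, against 108 and 120.4 CPM in Lam-RNAi midgut, adjusted p = 0.000807), and GstE1 was 1.58-fold lower. GstD9 did not pass, with a log2 fold change of 0.08 and a 95% interval of -0.07 to 0.23. Markers differed too: 15 of 19 muscle markers were lower in old midgut and 1 was higher (2467 to 2781 CPM, against 3636 to 3809 CPM in Lam-RNAi midgut). Of 6 oenocyte markers 5 were higher, of 9 hemocyte markers 5 were lower, and of 18 midgut markers 6 were higher and 2 lower. None was at 0, and the part of these cell types in the transferase levels was not tested. GstD4, GstD8, GstE1 and GstE8 kept their call whichever library was left out. Scaling by total counts alone gave 4 higher and 7 lower, where 3111 of 10220 loci were called and 27.8% of those were higher. Counts were 4 higher and 3 lower without old replicate 1 (28.2% of loci either way), 1 higher and 3 lower without old replicate 2 (14.5%), and 1 higher and 3 lower without Lam-RNAi replicate 2 (15.9%).

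**Figure D5:**
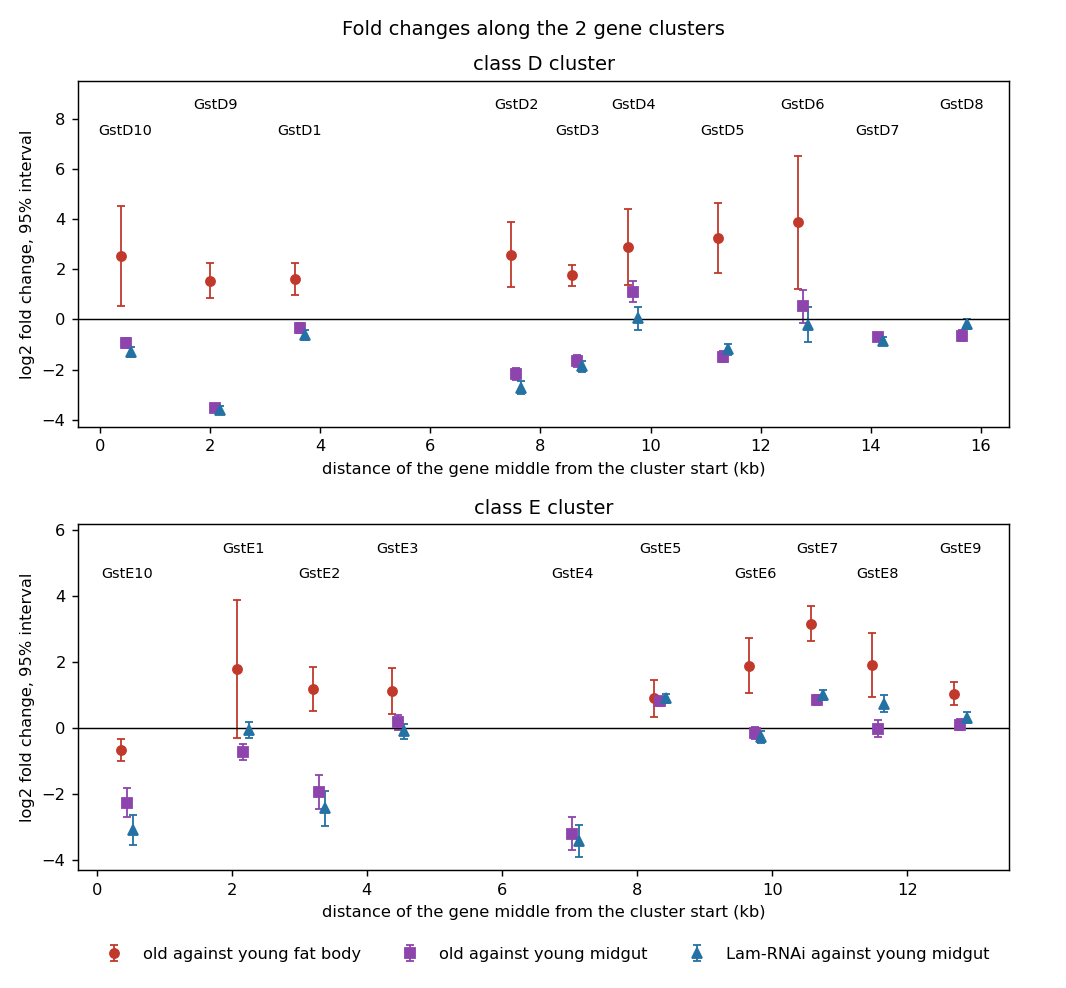
Log2 fold change with its 95% interval against the distance of each gene's middle from the start of its cluster, in kilobases, for class D (top) and class E (bottom) in old against young fat body, old against young midgut and Lam-RNAi against young midgut; GstD7, GstD8 and GstE4 were not tested in fat body. In class D the values of old against young fat body lie above 0 for the 8 genes tested, while the midgut values range from -3.61 at GstD9 to 1.10 at GstD4.

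In old whole gut, at 40 days, class D held the rises. On the fit's scale 5 of 10 class D genes were higher and 2 lower in old than in young whole gut, while 8 of 10 class E genes were lower. Over all 21 tested, 5 were higher (20.1% of the 9773 loci tested were higher), 11 lower (23.4% of loci, 43.6% either way) and 5 not passed. Scaling by total counts alone moved the median of all loci to 0.52 and called 11 genes higher and 3 lower, where 70.9% of loci were called in either direction. GstD7, GstD10, GstE5, GstE7, GstE10 and GstS1 turned from lower to a positive log2 fold change under it. The levels below are in CPM of the library total and so follow that second scale, while folds follow the fit.

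GstD8 rose most of the class D genes, to 24.9 and 20.3 CPM in old whole gut, against 5.42 and 6.13 CPM in young whole gut. It was 2.77-fold higher (log2 fold change 1.47, SE 0.15, adjusted p = 2.64e-06). GstD2 was at 20.9 and 19.6 CPM in old whole gut, against 11.1 and 9.32 CPM in young whole gut (1.40-fold, adjusted p = 0.00898). GstD1 was at 1119 and 1157 CPM in old whole gut, against 674 and 652 CPM in young whole gut (1.22-fold, adjusted p = 0.000393). The groups were apart in all 3 genes, and each was higher on both scales. GstD5 was at 106 and 112 CPM in old whole gut, against 68.5 and 66.8 CPM in young whole gut (1.15-fold, adjusted p = 0.0288), and GstD3, at 8.12 and 7.14 CPM, against 1.60 and 2.40 CPM in young whole gut, was 2.71-fold higher.

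GstE3 fell most of the class E genes with a mean of at least 5 CPM, to 262 and 251 CPM in old whole gut, against 421 and 419 CPM in young whole gut. It was 2.31-fold lower (log2 fold change -1.21, SE 0.05, adjusted p = 4.87e-10). GstE6 was at 287 and 277 CPM in old whole gut, against 339 and 356 CPM in young whole gut (1.74-fold lower, adjusted p = 2.87e-08). GstE9 was at 131 and 117 CPM in old whole gut, against 146 and 142 CPM in young whole gut (1.63-fold lower, adjusted p = 1.2e-06). GstE8 was at 40.4 and 33.4 CPM in old whole gut, against 41.2 and 41.7 CPM in young whole gut (1.58-fold lower, adjusted p = 8.82e-05). In these 4 genes the old libraries lay below the young ones in CPM as well. GstS1, at 90.7 and 87.5 CPM in old whole gut, against 90.3 and 83.8 CPM in young whole gut, overlapped between groups and was 1.38-fold lower only on the fit's scale (adjusted p = 9.3e-05), with a log2 fold change of 0.03 by total counts.

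Without old replicate 1, 3 genes were higher and 9 lower (30.2% of loci either way), and without old replicate 2, 4 were higher and 7 lower (29.3%), against 43.6% with all libraries. The old group is then 1 library, whose spread is assumed to be that of the young one. The midgut markers were lower in 13 of 18 cases in old whole gut (48516 to 48569.7 CPM, against 95378 to 100572 CPM in young whole gut) and higher in 4, and the Malpighian tubule markers were lower in 7 of 9 (1576 to 1645 CPM, against 1793 to 1798 CPM in young whole gut). All 6 oenocyte markers were lower as well (58.9 to 59.8 CPM, against 413 to 421 CPM in young whole gut). Of the 12 fat body markers 9 were lower and 1 was higher (3498 to 3775 CPM, against 5522 to 5796 CPM in young whole gut). On the fit's scale 14 of 18 muscle markers tested and 6 of 7 hemocyte markers tested were lower. None was at 0, and their part was not tested.

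Whether age moved the family differently in fat body and midgut was tested as a difference of effects in 1 fit of all libraries. The log2 fold change with age, sign included, was higher in fat body than in midgut for 19 of 21 genes (23.8% of the 11128 loci), lower for none (20.4% of loci, 44.3% either way; none at an unadjusted p below 0.05 or in DESeq2), and not passed for GstE1 and GstE5. The median difference was 2.47, against 0.02 over all loci. The 19 genes and the median include GstD7, GstD8 and GstE4, which did not pass the count filter within fat body. They passed that of this fit through gut libraries alone, so their calls cannot be read as a change in fat body. A higher signed value is not a larger change: GstD9, GstE2 and GstE10, for example, had larger fitted changes in midgut, each downward, a difference in size that was not tested. Without old fat body replicate 3, 17 genes were higher and none lower (40.2% of loci either way), with GstD4 and GstE3 no longer called. Leaving aside GstD7, GstD8 and GstE4, which were too low for a test within fat body, GstD9 had the largest difference, a log2 difference of 5.04 (SE 0.33, adjusted p = 1.18e-07), and GstD2 and GstD5 followed at 4.74 each (SE 0.59 and 0.58). GstE7, higher with age in both tissues, still differed by 2.28 (SE 0.23). The genes called higher in old fat body and lower in old midgut were 7: GstD1, GstD2, GstD3, GstD5, GstD9, GstE2 and GstS1. This pattern held for 7 of the 18 transferases and for 7.93% of the 9944 loci tested in both tissues. GstD3 and GstS1 kept both calls whichever single library was left out; GstD2, GstD5, GstD9 and GstE2 lost the fat body call in 1 or 2 of 5 cases and GstD1 the midgut call in 2 of 4. GstE10 was called lower with age in fat body, midgut and whole gut alike, the last only on the fit's scale. Its fat body call did not hold in every case of 1 library left out.

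The log2 fold change with Lam RNAi, sign included, was higher in fat body than in midgut for 12 genes (24.1% of loci), lower for GstE5 alone (22.5% of loci, 46.7% either way) and not passed for 8. The median difference was 1.58, against -0.01 over all loci. The 12 genes include GstD7 and GstE4, and the median also includes GstD8. These passed the count filter of this fit through gut libraries alone, so their values cannot be read as a change in fat body. GstD3 differed by 2.97 (SE 0.26), GstD9 by 2.72 (SE 0.33) and GstS1 by 1.58 (SE 0.15, adjusted p = 2.13e-06). A higher signed value is again not a rise in fat body. GstD9 was at 6.71 and 6.78 CPM in Lam-RNAi fat body, against 13.7 and 13.8 CPM in young fat body, and did not pass there. GstE10 was called lower with Lam RNAi in both tissues. GstE5 differed by -1.39 (SE 0.24), being higher in Lam-RNAi midgut and at 2.64 and 2.15 CPM in Lam-RNAi fat body, against 4.46 and 3.02 CPM in young fat body. The age effect in midgut at 50 days minus that in whole gut at 40 days was higher for 4 genes (12.5% of loci), all of class E, and lower for 7 (17.6% of loci, 30% either way), 5 of them class D. The ages differ, so this difference joins tissue and age. Scaling by total counts alone moved that split to 3 higher and 10 lower, where 4709 of 11128 loci were called and 11.3% of those were higher.

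Related transferases under other symbols moved in both directions in old fat body. Of the 16 in the comparison list, 4 were higher (19.1% of loci) and 5 lower (19% of loci) in old fat body, with a median log2 fold change of 0.06. Without old replicate 3 these counts were 3 (12.2% of loci) and 2 (11.6% of loci). CG5224 (GstE11) was the exception in size, 8.64-fold higher (adjusted p = 0.000546), and CG1681 (GstT4), CG6662 (GstO1) and CG4688 (GstE14, known for ecdysteroid synthesis) were 1.60-fold, 2.02-fold and 2.46-fold higher. The falls were gfzf, CG11784 (GstE13), CG1702 (GstT3), CG6776 (GstO3) and CG9363 (GstZ2), at 1.21-fold to 1.65-fold lower. In Lam-RNAi fat body 4 were higher (18.5% of loci), again CG5224, CG4688, CG1681 and CG6662, and CG6776 alone was lower (17.1% of loci). By total counts 4 were higher and 3 lower there.

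In old midgut CG11784, CG1681, CG6662 and CG9362 of 15 tested were higher (25% of loci), and 8 were lower (28.7% of loci): se, gfzf, CG5224, CG1702, CG30000, CG6673, CG6776 and CG9363. CG9363 was 5.84-fold and CG5224 2.31-fold lower there. In Lam-RNAi midgut the same 4 genes were higher (25.5% of loci), CG1681 by 2.28-fold, and 6 were lower (29.9% of loci): CG5224, CG1702, CG30000, CG30005, CG6776 and CG9363, the last by 5.30-fold. In old whole gut 1 was higher (20.1% of loci) and 4 lower (23.4% of loci): CG6662 was 2.12-fold higher and CG16936 (GstE12), CG1681, CG1702 and CG6776 were 1.14-fold to 1.55-fold lower, CG1702 and CG6776 turning positive by total counts. By total counts 8 were higher and 1 lower there (62.4% and 8.57% of loci).

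A list of 25 genes drawn up for glutathione supply, its regulators and partner enzymes moved in both directions in old fat body. There 7 rose (19.1% of loci) and 7 fell (19% of loci), or 4 and 5 without old replicate 3 (12.2% and 11.6% of loci). The peroxiredoxins Prx2540-2 and Prx2540-1 were 8.76-fold and 3.11-fold higher there and malic enzyme, Men, 1.94-fold higher, while CG4753, Sod and the microsomal transferase-like Mgstl were 5.16-fold, 2.01-fold and 1.54-fold lower. CG4753 is now named Agpat4, an acyltransferase of phospholipid synthesis, and is not known to act in glutathione supply; without it 6 of 24 fell. In Lam-RNAi fat body 7 rose and 6 fell (18.5% and 17.1% of loci), or 5 and 9 by total counts (14.3% and 26.6%), again led by Prx2540-2, Prx2540-1 and Men among the rises and by Sod, CG4753 and Mgstl among the falls. In old midgut 9 rose and 10 fell, CG4753 among them (25% and 28.7% of loci): Zw, the glucose-6-phosphate dehydrogenase that supplies NADPH, was 2.28-fold higher, with Jafrac1 1.98-fold and Prx2540-2 5.05-fold higher, and CG6461 (Ggt-1), Prx2540-1 and PHGPx were 1.94-fold, 4.13-fold and 1.59-fold lower. In Lam-RNAi midgut 8 rose and 10 fell, CG4753 among them (25.5% and 29.9% of loci), with Zw, the conjugate transporter MRP and maf-S 2.82-fold, 1.84-fold and 1.47-fold higher, and Prx2540-1, Keap1, the repressor of the cnc factor, and PHGPx 6.80-fold, 2.29-fold and 1.73-fold lower. In old whole gut MRP alone rose, 1.17-fold, and 16 fell on the fit's scale (20.1% and 23.4% of loci), but 13 rose and 6 fell by total counts (62.4% and 8.57% of loci). The falls, on both scales for the 3 named, were led by Gclc, a subunit of the first enzyme of glutathione synthesis, at 2.10-fold, Cat at 2.0-fold and Men at 1.59-fold lower.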

How the data were processed

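The deposited files hold raw counts per annotated gene, made by the authors; base calling with CASAVA 1.8, alignment with TopHat2 and edgeR are named in the submitters' processing notes. The genome build, counter, strand setting and treatment of multi-mapping reads are not given in the sources used here. Entries at 1 position with equal counts were merged (15080 entries to 14095 loci), and CPM was computed from library totals. edgeR 4.0.16 in R 4.3.3 was run with TMM, filterByExpr and the robust quasi-likelihood F test, in 1 fit per tissue (10866, 10220 and 9773 loci; 4, 3 and 2 residual degrees of freedom) and 1 fit of all 17 libraries (11128 loci). The biological coefficients of variation were 19.4, 6.61 and 7.32% in fat body, midgut and whole gut. Adjusted p is Benjamini-Hochberg over all loci of a fit, SE is the size of the log2 fold change divided by the root of its F value, and intervals are 95%. The design text calls replicates biological, but no label ties them to animals, so the p-values reflect sample-to-sample spread alone, which may be technical. No libraries of a group were copies of each other, a check that does not cover a mixture of libraries.

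Members and lists were chosen with earlier results of these data known. Values per library are given for the highest member of each class and, per comparison with young samples, for the 5 largest rises and falls among called members with a mean of at least 5 CPM; of the glutathione list the 3 rises and 3 falls with the smallest p per comparison are named, and of the other transferases those called. Names of listed genes and coding lengths are from Ensembl and RefSeq annotation matched by symbol. Of the list entries, 25 of 27 glutathione genes were matched. Alternatives were DESeq2 1.42.0, its size factors, total counts, no filter, a replicate block, 1 fit of all libraries, each library left out and old fat body replicates 1 and 3 left out; a crossed block, and for the gene lists total counts, old fat body replicate 3 left out and CG4753 left out, were added after seeing the data. Where leaving out a library left a group with 1, that library was assumed to vary like the other groups. The tests were run on counts simulated with 1 common spread, smaller than that of the fat body fit. That check does not cover the spread seen in fat body. Promoter motifs and sequences were not analysed here.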

Additional observations from a re-analysis of the deposited data

Results flagged for a closer look

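Every value here is a difference of log2 fold changes whose own test in edgeR's quasi-likelihood fit of all 17 libraries passed an adjusted p of 0.05. Differences between fat body and midgut compare tissues; midgut minus whole gut compares tissue and age together. For age in fat body minus age in midgut these were GstD8 (5.62), GstD7 (5.34), GstE4 (5.16), GstD9 (5.04), GstD5 (4.74), GstD2 (4.74), GstD10 (3.40), GstD3 (3.35), GstD6 (3.34), GstE2 (3.08), GstE7 (2.28), GstE6 (2.01), GstD1 (1.91), GstE8 (1.89), GstD4 (1.76), GstE10 (1.56), GstS1 (1.16), GstE9 (0.90) and GstE3 (0.90). With 1 library left out, GstD4 lost the call in 8 of 9 cases, GstE3 in 6 of 9 and GstD6 in 2 of 9, with adjusted p up to 0.266, 0.144 and 0.141.

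For Lam RNAi in fat body minus Lam RNAi in midgut they were GstD7 (6.76), GstE4 (5.86), GstE2 (4.74), GstD6 (4.54), GstD5 (4.41), GstD4 (2.98), GstD3 (2.97), GstD9 (2.72), GstS1 (1.58), GstE6 (1.47), GstE10 (1.11), GstD1 (0.91) and GstE5 (-1.39). GstD1 lost the call in 5 of 8 cases of 1 library left out (adjusted p up to 0.0782). For age in midgut at 50 days minus age in whole gut at 40 days they were GstE3 (1.35), GstE5 (1.22), GstE7 (1.10), GstE9 (0.79), GstD5 (-1.70), GstE10 (-1.83), GstD8 (-2.13), GstE4 (-2.61), GstD2 (-2.70), GstD3 (-3.09) and GstD9 (-3.69). GstE4 lost the call in 7 of 8 such cases and GstD5 in 2 of 8 (adjusted p up to 0.0862 and 0.0565). GstD7, GstD8 and GstE4 passed the count filter of this fit through gut libraries alone, so their differences with fat body cannot be read as a change in fat body. GstD4, GstD6, GstD7, GstD8 and GstE4 had at most 3 reads in each young fat body library, so the sizes of their differences with fat body depend on the fit's prior count. That of GstD6 ranged over 2.07 to 6.37 for age and 3.27 to 7.64 for Lam RNAi with 1 library left out.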

How the results depend on the processing

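Of 156 member and comparison calls, 156 kept their call with DESeq2's size factors, 153 with DESeq2, 153 with no count filter and 140 by total counts. With a replicate block 131 of the 156 were kept. With 1 fit of all 17 libraries 72 of the 94 calls made within a tissue were kept. Without a filter 1 gene was lower in Lam-RNAi against young fat body, where 3676 of 13523 loci were called in either direction. DESeq2 called 11 higher in old against Lam-RNAi fat body, where 2456 of 13523 loci were called. Same-numbered replicates did not deviate together from their group means (correlations -0.285 to 0.00154). The most negative values were those of old with Lam-RNAi libraries, -0.285 in midgut and -0.219 and -0.157 in fat body. Whether libraries of unlike number share structure was not tested. In fat body a replicate block gave 9 higher and 0 lower for old against young, where 1707 of 10866 loci were called. It gave 5 and 1 for Lam-RNAi against young (2036 loci called) and 0 and 0 for old against Lam-RNAi (66 loci called). Counts of members under the block elsewhere stayed within 1.5 times those of the main fit. A crossed block, chosen after seeing the data, gave 5 higher and 7 lower in old against Lam-RNAi midgut (3782 of 10220 loci called). The fit of all 17 libraries gave 11 higher in old against Lam-RNAi fat body, where 3199 of 11128 loci were called. It gave 2 higher and 0 lower in old against Lam-RNAi midgut (1428 loci called). In whole gut it gave 2 higher and 7 lower (3787 loci called). The cause of these shifts was not tested.

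Without old fat body replicates 1 and 3, 2 genes were lower against young and 4 against Lam-RNAi fat body; GstE1 turned to -0.90 and -0.95, and GstD5 to -1.15 against Lam-RNAi. Total counts gave 11 higher and 3 lower in whole gut, 1 higher in young fat body against young midgut, and in whole gut positive values for GstS1 (0.03), GstE10 (0.04), GstE5 (0.07), GstE7 (0.22), GstD10 (0.21), GstD7 (0.09), CG1702 (0.04) and CG6776 (0.31); GstS1 turned to -0.38 for midgut minus whole gut. Per effective library size the summed family level was 882 CPM in Lam-RNAi and 609 CPM in young fat body, 2997, 2928 and 3825 CPM in old, Lam-RNAi and young midgut, and 2629 and 3117 CPM in old and young whole gut.

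With 1 library left out, counts higher and lower in fat body ranged over 5 to 17 and 0 to 1 (old against young), 4 to 6 and 1 (Lam-RNAi against young) and 0 to 13 and 0 to 2 (old against Lam-RNAi). They ranged over 1 to 4 and 3 to 4 in midgut (old against Lam-RNAi) and 3 to 7 and 7 to 11 in whole gut. The promoter motif count was not run. With 2 or 3 libraries a group, small changes may go uncalled.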
